A study of Mus musculus with 4 samples.

Results

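The genes described here are the cytosolic heat shock and chaperonin genes of mouse: the heat shock factors, the HSP70 and HSP110 chaperones, HSP90, the small heat shock proteins, the J proteins and other co-chaperones, and the CCT ring, with the mitochondrial chaperonin Hspd1 and Hspe1 and the mitochondrial HSP70 gene Hspa9 on the same list. They were taken by gene symbol from a list of 39, and 38 were found among the 47937 genes of the counts table. Hspa14 had no entry under its identifier and is not analysed here. The study sequenced total RNA, depleted of ribosomal RNA, from mouse embryonic fibroblasts (MEF cells) that were either untreated or exposed to the soy isoflavone genistein at 50 µM for 24 h, with 2 libraries in each group. Its stated question was how genistein acts on transcription of major satellite repeats.

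All 4 libraries are labelled as the same cell line, named only MEF. The untreated libraries carry the genotype label wild-type, and the field repeats the treatment for the other group. The labels name no vehicle for the untreated cells. The study's methods give DMSO alone for untreated cells in other assays and name no vehicle in the sequencing section. The labels also do not say whether the 2 libraries of a group came from separate cultures. The p-values below therefore measure the spread between these libraries only. Col1a1, Col1a2, Col3a1, Vim, Pdgfrb, S100a4 and Fn1, markers of fibroblasts, were abundant in every library, while Thy1 had 0 counts in all 4, which by counting error alone allows up to 3 counts a library.

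Heat shock proteins are molecular chaperones: they bind unfolded or partly folded proteins and help them to fold, to assemble or to be degraded. HSP70 proteins work in cycles of ATP hydrolysis that J proteins start and nucleotide exchange factors end, and HSP90 acts later on clients such as kinases and steroid receptors, with co-chaperones that set the order of its cycle. The CCT ring, built of different but related subunits, folds actin and tubulin, and the transcription factor HSF1 raises many of these genes after heat or other protein damage by binding heat shock elements, arrays of a short unit that alternates in orientation.

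Heat shock elements were looked for in the promoters of the listed genes, from 250 bases before to 50 bases after each RefSeq start (build GRCm38.p6), and 32 of the 39 genes had a promoter there, 41 promoters in all. Cct4, Cryab, Hsf1, Hsp90aa1, Hsp90ab1, Hspa8 and Hspa9 had none. The motif of 2 units was searched as GAANNTTC or TTCNNGAA. Each of these letter patterns is its own reverse complement, so one pass covers both strands, and a longer array contains both. The following sites are shown because Hspa1a and Hspa1b, Fkbp4, Hspd1 and Hspe1, and Hspb1 differed in the direction of their transcripts while each carried the motif; capitals mark the units of the element, and each sequence is written on the strand of its gene.
Hspa1a, chr17:34972242-34972271, minus strand: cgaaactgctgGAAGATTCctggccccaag
Hspa1b, chr17:34959324-34959353, minus strand: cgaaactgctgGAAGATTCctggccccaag
Fkbp4, chr6:128438789-128438818, minus strand: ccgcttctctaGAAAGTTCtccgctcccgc
Hspd1, chr1:55088053-55088082, minus strand: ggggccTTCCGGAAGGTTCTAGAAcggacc
Hspe1, chr1:55088053-55088082, plus strand: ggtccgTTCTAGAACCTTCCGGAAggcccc
Hspb1, chr5:135887791-135887820, plus strand: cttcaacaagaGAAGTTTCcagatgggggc
Hspb1, chr5:135887811-135887840, plus strand: agatgggggcaGAACCTTCctggccccgcc

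The Hspa1a and Hspa1b sites ended 96 bases before the start of their genes, and their promoters were identical at 296 of 300 bases. Hspd1 and Hspe1 are transcribed away from each other, so the array of 4 units printed for both is 1 stretch of DNA read on either strand, 126 bases before the Hspd1 start and 71 bases before the Hspe1 start. In the GENCODE M21 annotation this stretch also lies in an untranslated exon of another Hspd1 transcript. The Fkbp4 site was 143 bases before its start, within an exon of the antisense gene Gm10069, and the Hspb1 sites were 109 and 89 bases before theirs and overlapped no annotated gene. At least 1 element of 2 units was found in 19 of the 41 promoters, or 46.3%, and in 4946 of all 32851 promoters in the table, or 15.1%. An array of 3 or more alternating units was found in 7 of the 41 promoters, or 17.1%, belonging to Chordc1, Dnajb6, Hspd1, Hspe1 and Hsph1, against 0.603% of all promoters. These promoters are not separate stretches of DNA. The 2 promoters of Dnajb6 hold the same array, as do the 2 of Hsph1 and those of Hspd1 and Hspe1. Counted by gene, 5 of 32 (15.6%) had such an array, and those of Chordc1 and Hsph1 ended past the start. A match is a description of the letters and does not show that a factor was bound there. Arrays with a mismatched unit were not searched, so a promoter without a match may still hold one.

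Transcripts of most of these genes were lower after genistein exposure. Of the 38 genes, all of which passed the filter on low counts, 29 fell (76.3%), 6 rose (15.8%) and 3 did not pass the test at an adjusted p under 0.05 (quasi-likelihood test of edgeR, Benjamini-Hochberg adjustment across every gene and repeat tested, here and for each adjusted p below). Over the 16240 genes tested, 38.2% fell and 33.5% rose by the same call. The study's thresholds also asked for a mean of more than 100 normalised counts and a log2 fold change beyond 1 in either direction. Past all thresholds 13 of the 38 were lower and 1 was higher, compared with 4.16% and 3.92% of all genes tested. The median log2 fold change of the 38 genes was -0.81, and that of all genes tested was -0.033.

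The groups did not overlap for most of them, as was the case for most genes tested. Both genistein libraries lay below both untreated libraries for 30 genes and above both for 6, and the groups overlapped for Hspb1 and Dnajb6. Among all genes tested, 44.6% lay below both and 40.7% above both. With 2 libraries against 2, an exact permutation test of a single value cannot give a two-sided p below 0.33, so ratios and sums are given below as values without a test. The sum of normalised counts over the 38 genes was 428156 and 413915 without genistein and 217797 and 220188 with it. This took the genes from 1.39% and 1.35% of the library to 0.738% and 0.761%. A normalised count is the count scaled by the library's effective size, and in bulk RNA fewer cells of a kind and less RNA of a gene per cell cannot be told apart.

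**Figure D1:**
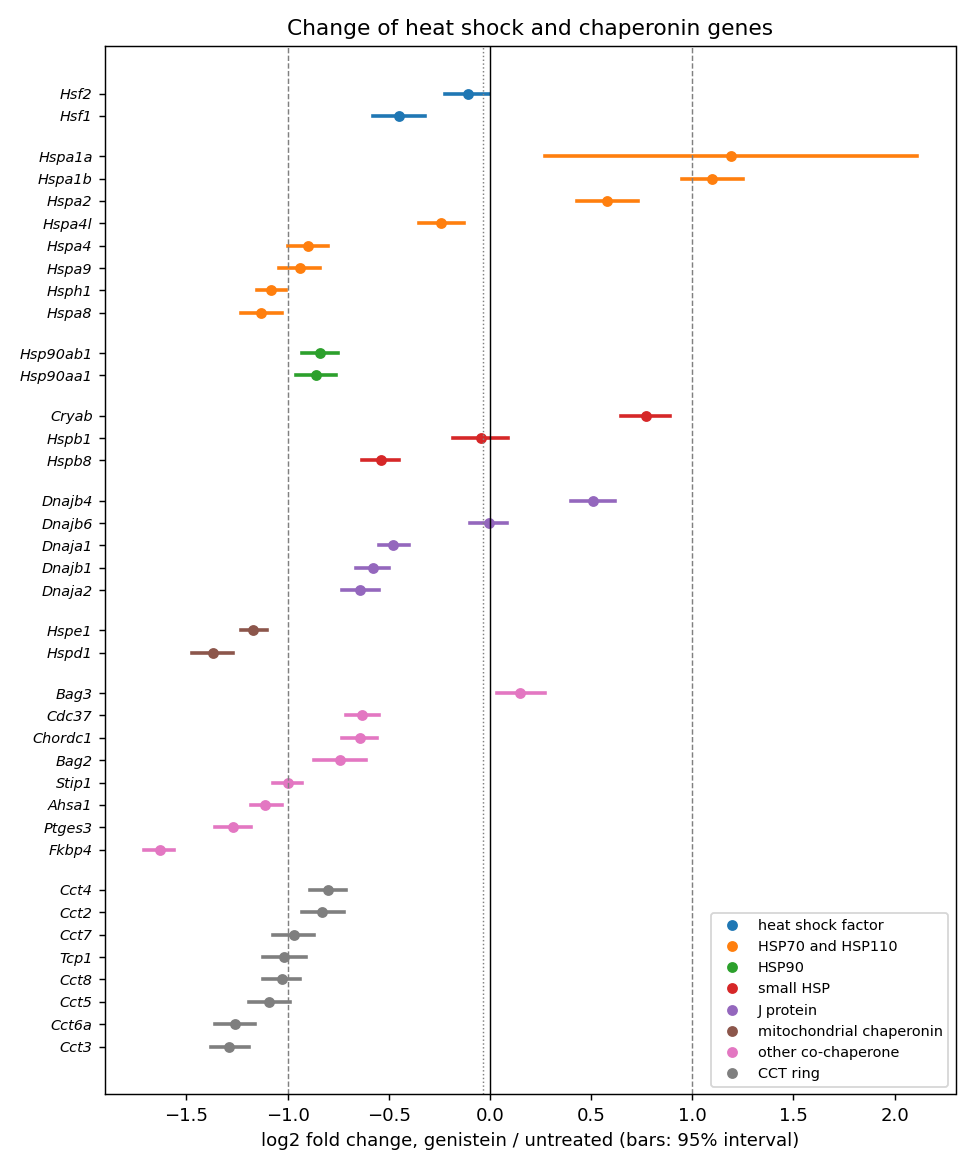
The log2 fold change of each of the 38 genes, genistein over untreated, on the horizontal axis, grouped and coloured by class; bars are 95% intervals, dashed lines mark -1 and 1, and the dotted line marks the median of all genes tested (-0.033). All 8 CCT genes lie to the left of 0, from -1.29 to -0.80, while the HSP70 class runs from -1.13 for Hspa8 to 1.19 for Hspa1a, whose interval is the widest.

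The abundant genes all moved one way. All 19 genes with a mean normalised count over 5000 fell, 11 of them past all thresholds, and their median log2 fold change was -1.02. Of the 915 genes of any kind at that level, 65.5% fell, 8.42% were lower past all thresholds and the median was -0.30. Of the 19 heat shock and chaperonin genes at 5000 or less, 10 fell, 6 rose and 3 did not pass, with a median of -0.24.

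Of the transcription factors, Hsf1 fell and Hsf2 did not pass the test. Hsf1, the main factor of the heat shock response, lies at chr15:76477422-76501913 (GRCm38). Its normalised counts were 1496 and 1443 in untreated cells and 1154 and 997 after genistein. Both treated libraries were below both controls, and Hsf1 fell by 0.45 on the log2 scale (SE 0.061, adjusted p = 5.6e-06). Hsf2, a second factor that can bind the same elements, had 1100 and 1117 normalised counts against 1021 and 1030. The treated libraries were again the lower ones, but the log2 fold change of -0.11 (95% interval -0.22 to -0.003) gave an adjusted p of 0.061 and did not pass. It did pass with DESeq2's size factors in the same test (adjusted p = 0.046) and without the filter on low counts (0.033). It did not pass in the DESeq2 test (0.21).

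HSP70 and HSP110 genes moved in both directions: 5 of the 8 fell (62.5%) and 3 rose (37.5%). The shares of all genes tested were 38.2% and 33.5%. The class is led by Hspa8, the constitutive cytosolic HSP70 known as HSC70, at chr9:40800984-40810087. Its normalised counts were 31320 and 30133 in untreated cells and 14088 and 14027 after genistein, so every treated library was far below every control. Hspa8 fell 2.19-fold (log2 fold change -1.13, SE 0.047, adjusted p = 3.1e-12), the strongest decrease of the class.

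The stress-inducible HSP70 genes Hspa1a and Hspa1b, neighbours on chromosome 17 at 34969190-34972156 and 34956436-34959238, went the other way. Hspa1b counts were 298 and 295 in untreated cells and 626 and 643 after genistein, a rise of 2.14-fold (log2 fold change 1.10, SE 0.071, adjusted p = 7.0e-10). The treated libraries were above the controls with little spread in either group, and Hspa1b was the only gene of the 38 higher past all thresholds. Hspa1a was near the limit of detection, with 16, 5.29, 31.9 and 17.2 normalised counts in untreated 1, untreated 2, genistein 1 and genistein 2. Its groups did not overlap, but genistein 2 was close to untreated 1, and the log2 fold change of 1.19 had an SE of 0.43 (adjusted p = 0.022). This call was lost in the DESeq2 test (adjusted p = 0.13), without untreated 2 (0.63, adjusted p = 0.2) and without genistein 1 (0.67, adjusted p = 0.27). Without untreated 1 the value was 2.20. Transcripts of the pair are 99.2% identical over an aligned stretch of 2201 bases, so the split of reads between the 2 genes is uncertain. Counted as 1 entry they rose by a log2 fold change of 1.10 (SE 0.070, adjusted p = 5.3e-10).

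Within a library, the level of Hspa1a plus Hspa1b per length of exon was 0.0153 of that of Hspa8 in both untreated libraries and 0.0715 and 0.0721 of it after genistein. The inducible genes thus remained far below the constitutive one in the treated cells. The ratio differed between the groups by 2.23 on the log2 scale. Length of exon, here and below, merges all annotated exons of a gene, and counts of the near-identical pseudogenes described below are not added.

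Hspa2, an HSP70 gene best known from male germ cells, rose as well, from 350 and 364 to 539 and 527 normalised counts (log2 fold change 0.58, adjusted p = 1.8e-06). The HSP110 genes, nucleotide exchange factors of HSP70, fell to different extents. Hsph1, the heat-inducible HSP110, had 6291 and 6377 normalised counts in untreated cells and 3053 and 2930 after genistein (log2 fold change -1.08, SE 0.034, adjusted p = 9.9e-14). Hspa4 fell by 0.90 and its relative Hspa4l by 0.24 on the log2 scale, and the ratio of Hspa4l to Hspa4 per length was 0.0331 and 0.0342 in untreated cells and 0.0546 and 0.0520 after genistein. Hspa9, the mitochondrial HSP70, fell by 0.94 on the same scale.

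**Figure D2:**
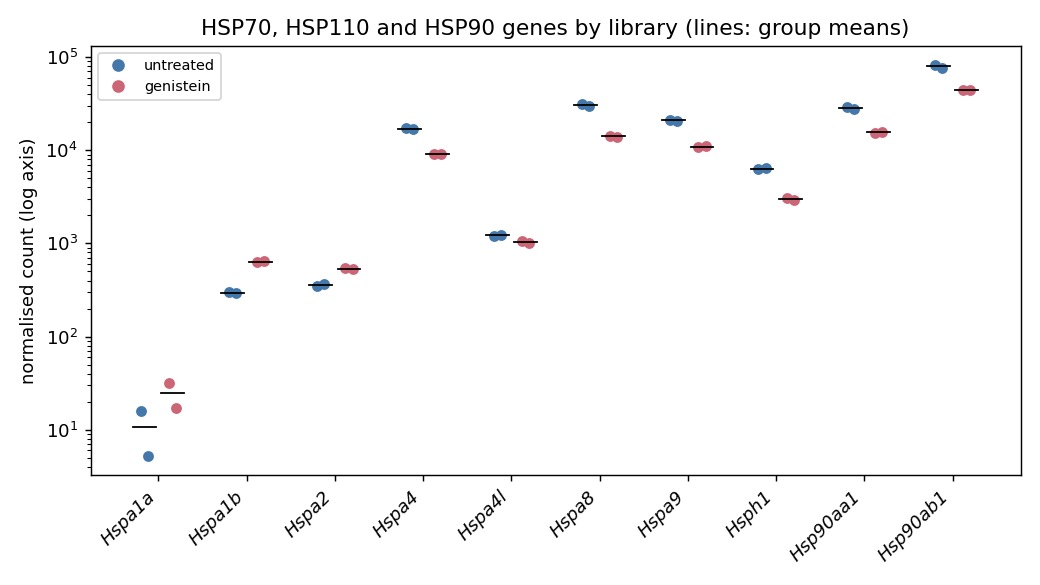
Normalised counts of the HSP70, HSP110 and HSP90 genes in each library on a log axis, with untreated libraries in blue, genistein libraries in red and group means as lines. Hspa1b rose from 298 and 295 to 626 and 643 while Hspa8 fell from 31320 and 30133 to 14088 and 14027, and the libraries of a group lie close together except for Hspa1a.

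Both cytosolic HSP90 genes fell to nearly the same extent. Hsp90ab1, the constitutive isoform at chr17:45567775-45573271, had 81307 and 77205 normalised counts in untreated cells and 44711 and 44008 after genistein (log2 fold change -0.84, SE 0.043, adjusted p = 4.0e-11). Hsp90aa1, the inducible isoform at chr12:110690605-110702728, had 29013 and 27875 against 15453 and 15832 (log2 fold change -0.86, SE 0.047, adjusted p = 8.4e-11). Treated and untreated libraries were far apart for both. Per length of exon, Hsp90aa1 stood at 0.272 and 0.275 of Hsp90ab1 in untreated cells and at 0.264 and 0.274 after genistein, ranges that overlap. Hsp90ab1 was the most abundant of the 38 genes per length in both groups, at a mean of 26427 normalised counts per kb of exon in untreated cells and 14792 after genistein. This order depends on the merged exon length and leaves out the pseudogene copies of Hspa8, which held more counts than Hspa8 itself.

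The small heat shock proteins, ATP-independent chaperones that hold unfolding proteins, did not share a direction. Cryab, αB-crystallin, had 725 and 678 normalised counts in untreated cells and 1212 and 1181 after genistein, and rose 1.71-fold (log2 fold change 0.77, SE 0.057, adjusted p = 3.9e-09). Hspb8, which works with BAG3 in selective autophagy, had 2168 and 2123 against 1456 and 1502, and fell by 0.54 on the log2 scale (adjusted p = 6.9e-09). Hspb1, encoding mouse HSP25, had 650 and 621 against 602 and 633. Its groups overlapped and the log2 fold change was -0.044 (95% interval -0.18 to 0.087, adjusted p = 0.53), and it was 0.025 when libraries were scaled by their totals alone. The median of the 3 genes was -0.044.

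J proteins deliver substrates to HSP70 and start its ATP hydrolysis. Of the 5 listed, 3 fell (60%), 1 rose (20%) and 1 did not pass, beside 38.2% lower and 33.5% higher among all genes tested. Dnajb1, the heat-inducible HSP40, had 2931 and 2936 normalised counts in untreated cells and 1955 and 1963 after genistein, with almost no spread within either group (log2 fold change -0.58, SE 0.037, adjusted p = 5.2e-10). Dnaja2 had the lowest log2 fold change of the class at -0.64, with 10254 and 10140 against 6379 and 6694, and Dnaja1 fell by 0.48 on the log2 scale. In contrast, Dnajb4 had 936 and 968 normalised counts in untreated cells and 1312 and 1401 after genistein, and rose by a log2 fold change of 0.51 (adjusted p = 2.7e-07). For Dnajb6, a suppressor of protein aggregation, values were 1982 and 1866 against 1919 and 1914, and the treated libraries lay between the controls (log2 fold change -0.0064, 95% interval -0.10 to 0.083, adjusted p = 0.9). Its sign depended on the scaling, as it was 0.063 when libraries were scaled by their totals alone.

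Fkbp4 and Hspd1 had the lowest log2 fold changes of the 38 genes, -1.63 and -1.37. Of the 8 co-chaperones outside the J proteins, 7 fell (87.5%), 4 of them past all thresholds (50% of the 8). Among all genes tested these shares were 38.2% and 4.16%. Fkbp4, encoding the immunophilin FKBP52 of steroid receptor complexes, lies at chr6:128429735-128438677 and had 9939 and 9376 normalised counts in untreated cells and 3101 and 3122 after genistein. It fell 3.10-fold (SE 0.037 on the log2 scale, adjusted p = 2.0e-15). Ptges3, which encodes p23, a co-chaperone of the late HSP90 complex, had 10497 and 10033 against 4121 and 4383 (log2 fold change -1.27). Ahsa1, the activator of the HSP90 ATPase, had 4416 and 4297 against 1989 and 2059 (log2 fold change -1.11).

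Stip1, or HOP, which links HSP70 to HSP90, had 8436 and 8303 normalised counts in untreated cells and 4214 and 4149 after genistein. Its log2 fold change of -1.0 placed it just past the threshold (SE 0.033, adjusted p = 1.7e-13). It was no longer past it with library totals alone (-0.93), with scaling and fit from genes alone (-0.96), without untreated 1 (-0.99) and without genistein 2 (-0.99), and it fell at the adjusted p in each. Treated libraries were below both controls for each of these 4 genes. Bag2, Chordc1 and Cdc37, the last a co-chaperone for kinases, fell by 0.74, 0.64 and 0.63 on the log2 scale. Bag3, an exchange factor of HSP70 that guides clients to autophagy, was the exception, with 1070 and 992 normalised counts against 1163 and 1127 and a log2 fold change of 0.15 (adjusted p = 0.021). That call was lost without the filter on low counts (adjusted p = 0.056), in the DESeq2 test (0.14), without untreated 2 (0.18) and without genistein 1 (0.081).

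Hspd1 and Hspe1, the HSP60 and HSP10 that form the folding chamber of the mitochondrion, fell together. Hspd1 had 25240 and 24258 normalised counts in untreated cells and 9451 and 9712 after genistein (log2 fold change -1.37, SE 0.048, adjusted p = 4.2e-13). Hspe1 had 7241 and 7148 against 3195 and 3213 (log2 fold change -1.17, SE 0.031, adjusted p = 1.7e-14). Both groups were well apart. Per length of exon, Hspe1 stood at 0.514 and 0.528 of Hspd1 in untreated cells and at 0.606 and 0.593 after genistein. The genes overlap on opposite strands in the annotation, and whether the counting used strand is not given in the sources used here.

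**Figure D3:**
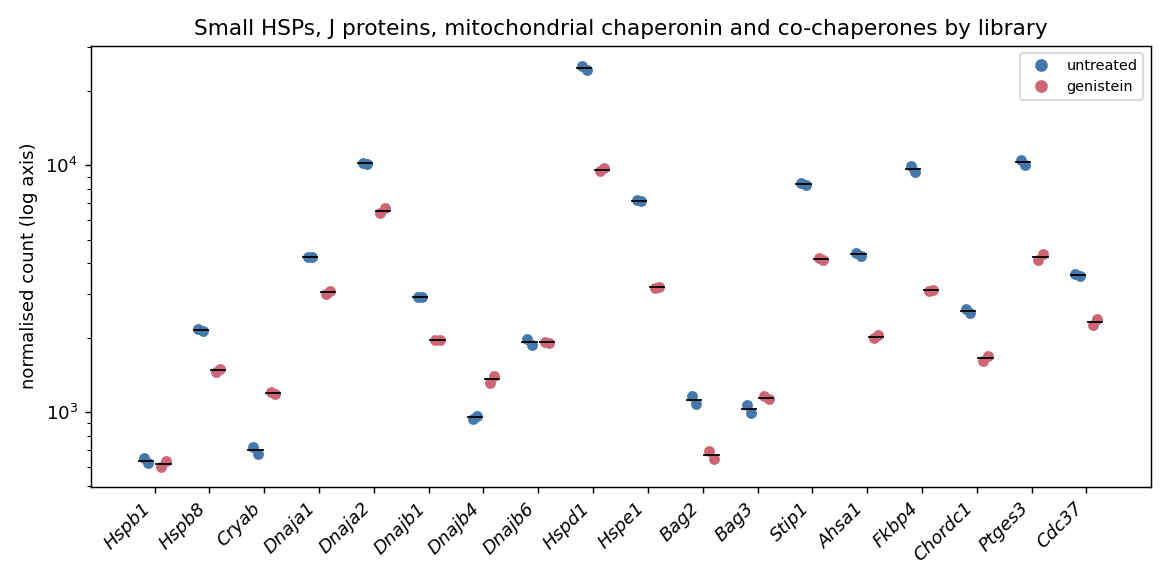
Normalised counts of the small heat shock, J protein, mitochondrial chaperonin and co-chaperone genes in each library on a log axis, with untreated libraries in blue, genistein libraries in red and group means as lines. Fkbp4 shows the widest gap, from 9939 and 9376 to 3101 and 3122, whereas the groups overlap for Hspb1 and Dnajb6 and the red points lie above the blue ones for Cryab, Dnajb4 and Bag3.

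All 8 genes of the CCT ring fell, 5 of them past all thresholds (62.5%). All 8 had a mean normalised count over 5000. Of the 915 genes tested at that level, 65.5% fell and 8.42% were lower past all thresholds. The median log2 fold change of the ring was -1.02. Its summed normalised counts were 139125 and 135330 in untreated cells and 66522 and 68224 after genistein. Tcp1, which encodes the first subunit of the ring and lies at chr17:12915701-12925067, had 21093 and 20609 against 10110 and 10524 (log2 fold change -1.02, SE 0.047, adjusted p = 1.3e-11). Cct3 had the lowest log2 fold change of the class at -1.29, with 13743 and 13184 normalised counts in untreated cells and 5441 and 5584 after genistein (adjusted p = 3.2e-13). Cct4 had the highest at -0.80, with 13070 and 12648 against 7413 and 7385. For every subunit the treated libraries lay below both controls. Tcp1 and Cct8 were no longer past all thresholds with library totals alone (-0.95 and -0.96) and with scaling and fit from genes alone (-0.97 and -0.98).

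Of the others, Cct6a had 20000 and 19637 normalised counts against 8100 and 8399, a log2 fold change of -1.26. Cct5 had 21459 and 20695 against 9818 and 10001, or -1.09, and Cct8 had 12912 and 12733 against 6173 and 6402, or -1.03. Cct7 and Cct2 were below the threshold in size at -0.97 and -0.83. The range over the ring, -1.29 to -0.80, was thus narrower than that of the HSP70 class, -1.13 to 1.19.

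The subunits nonetheless did not fall in strict proportion. Relative to the mean of the 8 genes per length of exon, Cct2 stood at 1.80 and 1.81 in untreated cells and at 2.03 and 2.08 after genistein, and Cct4 went from 0.662 and 0.657 to 0.778 and 0.752. Cct6a went from 1.17 and 1.18 to 0.986 and 0.992, and Cct3 from 0.459 and 0.452 to 0.376 and 0.375. Tcp1, at 0.892 and 0.894 against 0.886 and 0.895, had shares that overlapped between the groups. These shares are values of 2 libraries a group and were not tested.

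**Figure D4:**
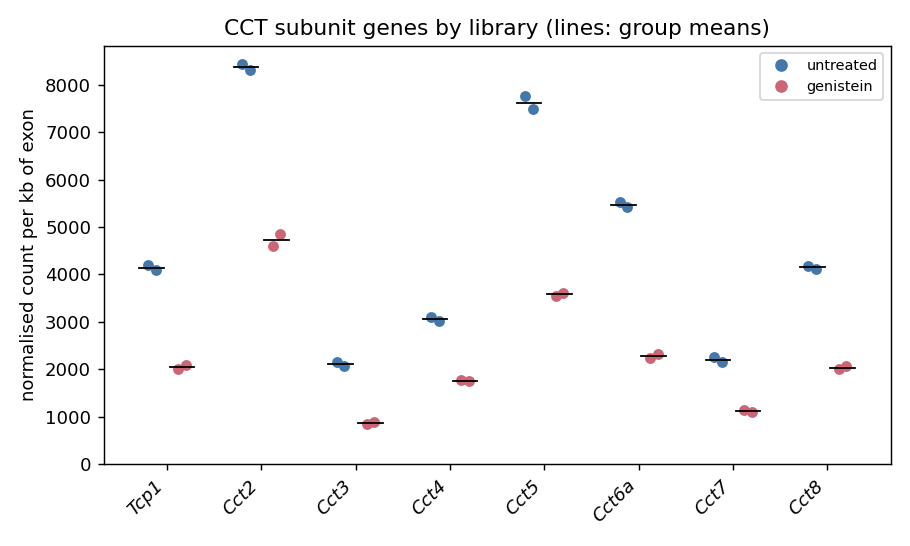
Normalised counts per kb of exon of the 8 CCT subunit genes in each library, with untreated libraries in blue, genistein libraries in red and group means as lines. Cct2 was the highest in both groups, at 8443 and 8311 per kb untreated and 4594 and 4862 after genistein, and every red point lies below both blue points of the same gene. The order of the subunits depends on the merged exon length. By count alone, Cct2, Cct5 and Tcp1 were close in untreated cells, at means of 21420, 21077 and 20851.

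Several of these genes have processed pseudogenes so alike that reads can be shared, since the authors kept reads aligning to as many as 100 places. Copies of at least 95% identity over at least 300 bases were annotated for 8 genes. The copies of Hspa8 held more counts than Hspa8 itself, 57105 and 55196 normalised counts in untreated cells and 26195 and 26595 after genistein, mostly in Gm15459. Copies held 61.7% of the member's mean for Ptges3, 65.0% for Hspb1, 50.0% for Dnaja1, 45.2% for Hsp90aa1, 43.8% for Dnajb6 and 28.8% for Hspd1. Levels of these genes are therefore uncertain.

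The changes were close to the same when the copies were added to their gene, an alternative chosen after seeing the data. Log2 fold changes were then -1.10 for Hspa8, -1.27 for Ptges3, -0.57 for Dnaja1, -0.86 for Hsp90aa1, -1.36 for Hspd1 and -0.94 for Hspa9. For Dnajb6 the value became -0.094 and passed the test (adjusted p = 0.031), and for Hspb1 it became -0.11 and did not (adjusted p = 0.071). Other genes overlap neighbours on the opposite strand, among them Cct8 with Usp16, Tcp1 with Mrpl18, Dnaja1 with Smu1, Cct6a with Psph and Cct7 with Pradc1.

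**Figure D5:**
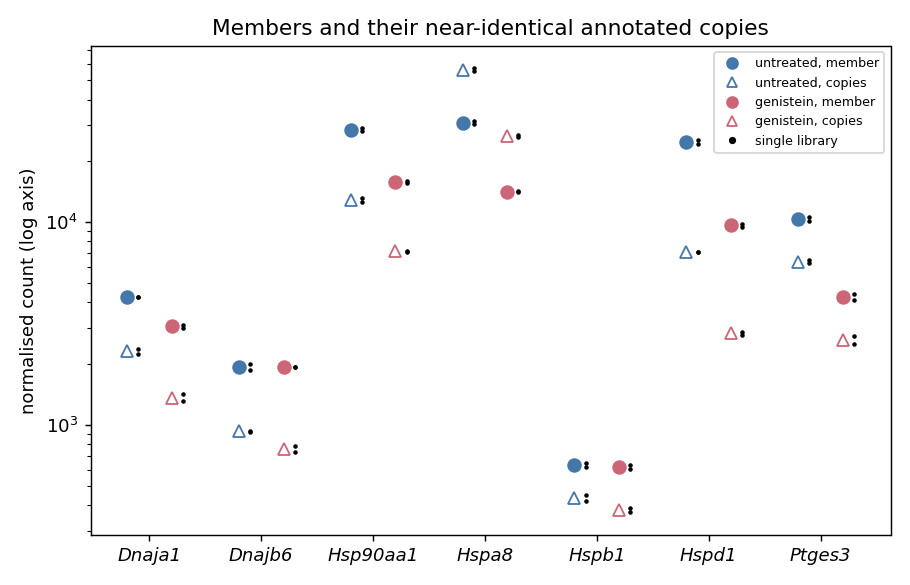
Normalised counts, on a log axis, of 7 genes (filled circles, group means) and of the sum of their near-identical annotated copies (open triangles, group means), with single libraries as small dots; blue is untreated and red genistein. Hspa8 is the only one whose copies hold more counts than the gene, and for Hspa8, Hspd1, Hsp90aa1, Ptges3 and Dnaja1 both symbols are lower after genistein.

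Genes with the promoter motif were found in both directions, and no test of the motif against direction was made. Of the 17 genes with at least 1 element of 2 units, 11 fell, 4 rose and 2 did not pass, and their median log2 fold change was -0.63, with a range from -1.63 for Fkbp4 to 1.19 for Hspa1a. Of the 14 tested genes with a promoter and no exact match to the motif, 12 fell, 1 rose and 1 did not pass, with a median of -0.94. Of all genes tested, 38.2% fell and 33.5% rose. Among the 5 genes with 3 or more units, Chordc1, Hspd1, Hspe1 and Hsph1 fell, and Dnajb6 did not pass. The 4 that rose with an element were Hspa1a, Hspa1b, Dnajb4 and Bag3, and the 1 that rose without was Hspa2. The Bag3 site ended past the start, as did those of Cct6a and Hspb8, which fell.

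Other genes of the chaperone network were taken from a list of 96, of which 79 passed the filter on low counts. By the adjusted p, 49 fell, 10 rose and 20 did not pass, with a median log2 fold change of -0.21. These were 62.0% lower and 12.7% higher, beside 38.2% and 33.5% of all genes tested, whose median was -0.033. Past all thresholds 5 of the 79 were lower, or 6.33%, a share near the 4.16% of all genes tested. They were Ppid, an HSP90 immunophilin (log2 fold change -1.30), Dnajc2, a J protein of the ribosome (-1.27), Dnajc21, a J protein of ribosome maturation (-1.17), Nudc, an HSP90 co-chaperone (-1.15), and Tomm70a, a receptor for chaperone-bound precursors at the mitochondrial surface (-1.02).

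The subgroups of that list are given by their counts, with no test between them. Of the 20 further HSP90 genes and co-chaperones, 17 fell and 1 rose, with a median of -0.34. Of the 14 tested prefoldin subunits and other helpers of the chaperonin, 9 fell and 5 did not pass, with a median of -0.17. Of the 12 further HSP70 genes and their exchange factors, 10 fell and 1 rose. Of the 27 further J proteins, 13 fell (48.1%) and 6 rose (22.2%), with a median of -0.062, shares nearer to those of all genes tested. Of the 3 other small heat shock genes tested, 1 rose and 2 did not pass. Of the 3 tested genes among the other heat shock factors and their binding protein, Hsf4 rose (log2 fold change 0.76, adjusted p = 1.5e-06) and 2 did not pass, with a median of 0.55.

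The libraries held 28591958 to 31464284 counts. Pearson's r on the log2 scale, across the genes and repeats tested, was 0.996 and 0.995 within the groups and 0.960 to 0.964 between them. Markers of other cells were low or absent in part: Epcam, Krt5, Adgre1, Myod1, Rbfox3 and Sox10 had 0 counts in all 4 libraries, and Ptprc and Cdh5 had at most 1 count. Some moved with treatment. Of the 4 macrophage and blood markers, Csf1r and Cd68 rose, and the sum of the list went from 210 and 192 to 546 and 570 normalised counts. Of the 4 endothelial markers only Kdr was tested and rose, and the sum went from 25.0 and 30.7 to 85.3 and 97.2. Of the 4 epithelial markers only Krt14 was tested and fell, and the sum went from 718 and 672 to 118 and 108. Of the 4 neural markers only Tubb3 was tested. It was present in every library, at 912 and 856 normalised counts untreated and 775 and 742 after genistein, and fell (log2 fold change -0.22). Of the 4 pluripotent markers 2 were tested, Pou5f1 and Nanog, and did not pass. The sum of that list went from 33 and 37.1 to 48.8 and 56.7. Of the 8 fibroblast markers 7 were tested. Of these, 6 fell (85.7%) and 1 rose (14.3%), beside 38.2% and 33.5% of all genes tested. Of genes with a mean normalised count over 5000, which include Col1a1, Col1a2, Col3a1, Vim and Fn1, 65.5% fell. The sum of the fibroblast list went from 421749 and 433924 to 404284 and 394463. The part of these shifts in the chaperone results was not tested.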

How the data were processed

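Total RNA of 2 untreated and 2 genistein-exposed MEF libraries was sequenced after TruSeq Stranded Total RNA Gold preparation. Per the study's methods, the authors trimmed reads with Trim Galore 0.4.0, aligned them to mm10 with STAR 2.5.2, keeping up to 100 alignments per read, and counted genes and repeats with TEtranscripts 1.5.1. The deposited values are raw counts for 47937 genes and 1445 repeats. 1 entry without a name (0.00208 to 0.00314% of counts) was left out. Libraries held 28591958 to 31464284 counts. Reads carry no molecular identifiers, so counts are not independent molecules.

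Counts were tested with edgeR 4.0.16 in R 4.3.3 (TMM scaling, filterByExpr by group, quasi-likelihood test, group as the only term), with Benjamini-Hochberg adjustment over the 16240 genes and 1118 repeats kept. The study used DESeq2, which is an alternative here (version 1.42.0). Calls were an adjusted p under 0.05, alone or with a mean of more than 100 normalised counts and a log2 fold change beyond 1 in either direction. Intervals are 95% intervals of the fit. The test was checked on simulated counts of 17020 entries at an adjusted p under 0.05. It recovered 84 of 98 entries with a log2 change of 1 in size and 95 of 96 with a change of 2. It also called 21 unchanged entries. In the data 38.2% of the genes tested fell and 33.5% rose, a far larger share than was changed in the simulation. The check therefore does not measure how many of the calls here are false. Positions, exon lengths and copies come from GENCODE M21 and promoters from RefSeq, both on GRCm38, the assembly of mm10.

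Genes, lists and classes were chosen with earlier results of these data known. Values in every library are given for Hsf1, Hsf2, Hspa1a, Hspa1b, Hspa8, Hsp90aa1, Hsp90ab1, Dnajb1, Hspb1 and Tcp1, for genes past all thresholds and for the highest and lowest gene of each class. Hspa2 is given so in addition. Alternatives were other scalings, no filter, DESeq2, the replicate block, each library left out, other thresholds, the Hspa1a and Hspa1b sum and added copies.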

Additional observations from a re-analysis of the deposited data

How the results depend on the processing

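The counts of genes that fell and rose at an adjusted p under 0.05 stayed within 1.5 times of 29 and 6 under each alternative run. With the replicate block they were 29 and 6. The replicate numbers are only names here, since deviations of same-numbered libraries had a correlation of -0.0265, and the block changed none of these counts. Leaving out 1 library gave 29 lower in each case, 4 to 6 higher, and 11 to 14 lower past all thresholds. That last count was 10 with library totals alone and 10 with scaling and fit from genes alone, where Stip1, Tcp1 and Cct8 were smaller in size than the limit of 1. With a mean normalised count over 10 in place of 100, 2 genes were higher past all thresholds, and with an absolute log2 fold change over 0.5 there were 4 higher and 26 lower, since these limits admit more genes. The median log2 fold change of the 38 genes was -0.74 with library totals alone, -0.77 with scaling and fit from genes alone, -0.84 without the filter, and -0.83 to -0.79 without 1 library. The median of all genes tested ranged from -0.042 to 0.037 over the settings. In the DESeq2 test 6 of the related genes rose instead of 10; the cause was not tested. Hspb1, and with it the median of the small heat shock genes, turned to 0.025 with library totals alone. Dnajb6 turned to 0.063 with library totals alone and to 0.037 with genes alone, and ranged from -0.049 to 0.038 without 1 library. Of 389 values of single genes under an alternative, 375 kept their direction and their side of the adjusted p of 0.05, 4 changed sign, all in Hspb1 and Dnajb6, and 10 changed side. Those 10 belong to Hsf2, Bag3 and Dnajb6, whose changes were small, and to Hspa1a, which had few counts.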
